A study of Rattus norvegicus with 26 samples.

Results

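The left ventricle of the stroke-prone spontaneously hypertensive rat (SHRSP) was compared with that of the normotensive F344 rat at week 14, on 15 of the 26 arrays of the series. The members are the 7 arrays whose titles give SHRSP and week 14 and the 8 arrays whose titles give F344 and week 14. All animals were untreated males, each measured on 1 Illumina RatRef-12 BeadChip, a single-colour array with 22523 probes. The other 11 arrays are hearts of the same strains at day 20 of fetal development (E20), 4 of SHRSP and 7 of F344, and were used for the shared estimate of the spread and for the test of whether a strain difference was also seen before birth. At week 14 RNA was taken from the left ventricular free wall, without septum, right ventricle and atria. Both strains are inbred and came from 1 colony each, so that a difference due to blood pressure and one due to any other genetic difference between the strains cannot be told apart. The values are log2 intensities that the authors had quantile-normalized over the arrays. They run from 6.64 to 15.53 with a median of 7.16, and differences of dim probes are understated.

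A ventricle that pumps against high pressure thickens its wall. Its cardiomyocytes enlarge and express genes of the fetal heart, among them those of the natriuretic peptides, which are hormones released by stretched muscle cells. Fibroblasts deposit matrix around the muscle cells, the capillary bed adapts, and resident macrophages and lymphocytes take part in the remodelling. A bulk RNA profile sums over all of these cells.

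Strain differences at week 14 were widespread and mostly small. In the limma fit, 2015 of the 22523 probes (8.95%) passed an adjusted p of 0.05, 1011 higher (4.49%) and 1004 lower (4.46%) in SHRSP, and only 45 of them (0.2% of all) differed by more than 1.5 on the log2 scale. Of the 13337 different genes with a named probe, 1469 (11%) were called, 718 higher (5.38%) and 751 lower (5.63%), and these shares are the background for the gene lists that follow. Members of the lists were chosen with earlier results of these data known, so the counts over a list are descriptions. Of the called genes 1040 (70.8%) differed by less than 0.5, 395 by 0.5 to 1.5 and 34 (0.255% of all genes) by more than 1.5. The 2 groups of arrays did not overlap for 534 genes (4%), 323 higher in SHRSP (2.42%) and 211 lower (1.58%), and 3.98% were both called and without overlap. Of the called genes 1150 (78.3%) were called again without each of the 15 arrays in turn, which was 97.2% of those with a difference of 0.5 or more and 70.5% of the smaller ones.

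Arrays of 1 group resembled each other closely, with a median Pearson's r over all probes to the rest of the group of 0.983 to 0.993. The authors had removed arrays that correlated poorly with their group, so high values of r were partly set by this choice. Probes are not independent replicates. The lowest of these values belonged to F344 replicate 3. Over the 572 probes (2.54%) that were called with a difference above 0.5, this array was the F344 array nearest to SHRSP for 133 probes and replicate 7 for 130, against 23 to 82 for the other 6. Of the genes named below Myh7, Col1a2, Psmb10 and Xbp1 lost their call without replicate 3, and each of them also without other single arrays.

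Genes that mark hypertrophic growth and a stretched wall were higher in SHRSP. Of 23 measured genes of this list, 10 (43.5%, against 5.38% of all genes) were higher and 0 lower. The median difference was 0.28 against -0.0037 over all genes. The groups of 6 genes (against 2.42% of all genes without overlap and higher) did not overlap. Nppa, the atrial natriuretic peptide, had a lowest, median and highest log2 value of 13.48, 14.27 and 14.76 in SHRSP and of 10.62, 11.42 and 12.20 in F344. Every SHRSP array was above every F344 array, a 6.87-fold higher mean (log2 difference 2.78, standard error 0.20, adjusted p = 2.036e-11 from limma). Nppb, the B-type natriuretic peptide of the ventricle, was at 14.13, 14.85 and 15.30 in SHRSP and at 12.14, 13.16 and 13.68 in F344. Its groups did not overlap and its mean was 3.16-fold higher (log2 difference 1.66, standard error 0.20, adjusted p = 4.988e-07). Acta1, which encodes skeletal alpha actin, a fetal form in the heart, was at 14.44, 14.50 and 14.64 in SHRSP and at 11.33, 12.10 and 13.41 in F344. The SHRSP arrays lay within a narrow band above a broad F344 range whose highest value was that of replicate 3 (log2 difference 2.36, standard error 0.18, adjusted p = 6.707e-11). The Acta1 and Nppb values of SHRSP lay near the upper end of the scale, where differences are compressed.

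Other members of the list belong to the matrix, to calcium signalling and to the sarcomere. Spp1, which encodes the matrix glycoprotein and cytokine osteopontin, was at 8.50, 9.18 and 11.61 in SHRSP and at 7.31, 7.40 and 7.99 in F344. The groups did not overlap, and the SHRSP arrays spread over 3 log2 units (difference 1.96, standard error 0.28, adjusted p = 8.401e-06 from limma). Rcan1, an inhibitor of calcineurin that is itself induced by calcineurin signalling, was higher by 1.12, the matricellular protein Ccn1 by 1.06 and the cytoskeletal regulator Enah, chosen after its values were seen, by 0.93. Rcan1 and Enah had groups that did not overlap, whereas Ccn1 ranged from 9.12 to 10.40 in SHRSP and from 8.03 to 9.51 in F344. Ankrd1, a stretch-responsive repressor at the sarcomere, was higher by 0.50 and the stress cytokine Gdf15 by 0.18. Myh7, the slow myosin heavy chain of the fetal rat ventricle, differed by 0.28 at an adjusted p of 0.04052, and the call was lost without 10 of the 15 arrays in turn. Myh7 and Myh6, the fast adult form with a difference of 0.05, lay at 14.44 to 15.23, near the upper end of the scale, where differences are compressed. Ankrd1 also lay near that end, at 14.58 to 15.38.

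**Figure D1:**
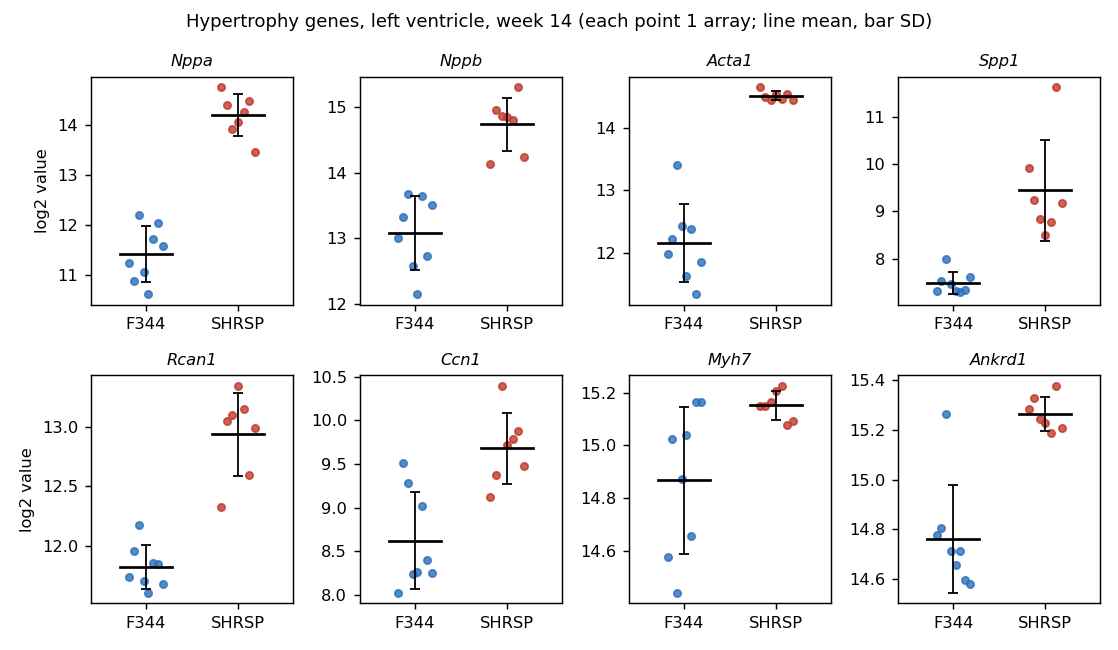
Log2 values (y axes, a separate range for each gene) of 8 hypertrophy genes on the 8 F344 and 7 SHRSP arrays of week 14, with 1 point per array, the mean as a line and the SD as a bar. Nppa, Nppb, Acta1, Spp1 and Rcan1 do not overlap between the strains, while Ccn1, Myh7 and Ankrd1 do.

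The promoters of the hypertrophy genes are shown because factors of the cardiac hypertrophic response are known to act on them. RefSeq sequences of build GRCr8 from 250 bases before to 50 bases after the start of the gene were searched on both strands for the CArG box, which is bound by SRF, for CATTCC, the M-CAT element bound by TEAD factors, and for AGATAA, a site of GATA factors. These occur in 1.64%, 14.2% and 11.6% of all 33469 promoters of the same length. The Acta1 promoter (chr19:68784145-68784444, minus strand) held 1 CArG box and 1 CATTCC, and the Nppb promoter (chr5:163699758-163700057, plus strand) held 1 AGATAA and 1 CATTCC on the opposite strand, read here as GGAATG. The promoter of Nppa had none of the 3. Matches are in capitals, do not overlap each other, and describe the sequence only.
Acta1: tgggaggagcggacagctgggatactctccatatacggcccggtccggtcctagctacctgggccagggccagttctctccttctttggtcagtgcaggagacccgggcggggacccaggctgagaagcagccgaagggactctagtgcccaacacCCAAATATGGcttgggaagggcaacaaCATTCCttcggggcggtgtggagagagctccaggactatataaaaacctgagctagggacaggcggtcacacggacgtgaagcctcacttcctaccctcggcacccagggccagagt
Nppb: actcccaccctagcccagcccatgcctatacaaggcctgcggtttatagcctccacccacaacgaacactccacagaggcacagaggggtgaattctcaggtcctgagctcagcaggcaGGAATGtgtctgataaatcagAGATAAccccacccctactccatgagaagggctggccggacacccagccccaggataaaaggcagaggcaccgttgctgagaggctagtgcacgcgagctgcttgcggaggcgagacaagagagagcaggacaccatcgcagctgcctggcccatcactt

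In the thick filament the largest difference was that of Myl7, the atrial form of the regulatory myosin light chain, which was lower in SHRSP. Its values were 7.47, 7.85 and 8.204 in SHRSP and 10.37, 11.58 and 12.26 in F344. All F344 arrays were far above the SHRSP arrays, a 13.5-fold difference of the means (log2 difference -3.76, standard error 0.20, adjusted p = 5.086e-14 from limma). Of 16 measured atrial markers 2 were lower (Myl7 and Dkk3), 2 were higher (Nppa and Tbx5) and 12 did not pass, and the atrial genes Kcnj5, Gja5 and Bmp10 were among those that did not. The ventricular markers Myl2, Myl3, Tnni3 and Tnnt2 did not pass either, and of 20 ventricular genes 2 were higher and 2 lower, the former 2 being lost without SHRSP replicate 4 or 5.

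Of 12 thin filament genes 4 (33.3%) were higher and 0 lower. Besides Acta1 these included Actc1, the cardiac alpha actin, by 0.48, and Lmod3, which nucleates actin filaments, by 0.68. Myl1, a skeletal essential light chain, was at 8.24 to 8.50 in SHRSP and 7.47 to 7.85 in F344, without overlap (difference 0.69, adjusted p = 9.168e-11 from limma). Of 30 genes of the Z-disc and costamere 5 were higher and 2 lower. Sorbs2, a scaffold protein of the Z-disc, had the largest difference of the list, with 11.15 to 11.77 in SHRSP and 7.27 to 8.17 in F344 (4.01, standard error 0.11), and Smpx, a small protein of the costamere, was higher by 0.60. Fhl2, a LIM protein that restrains calcineurin signalling, was lower by 1.04, at 12.53 to 12.99 in SHRSP and 12.84 to 14.07 in F344, and 1 F344 array, replicate 3, reached into the SHRSP range.

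Of 24 genes of calcium handling 1 was higher and 4 (16.7%, against 5.63% of all genes) were lower. Casq2, the calcium buffer of the sarcoplasmic reticulum, was at 8.22, 8.48 and 8.88 in SHRSP and at 8.90, 9.31 and 9.41 in F344. Cacna2d1, a subunit of the L-type calcium channel, was at 9.35, 9.49 and 9.61 against 10.01, 10.14 and 10.42. Both were lower on every SHRSP array (differences of -0.76 and -0.70, adjusted p = 0.0002282 and 8.065e-06 from limma). Atp2a2, the calcium pump SERCA2, gave a difference of 0.11 (adjusted p = 0.2426) at the top of the scale of 15.53, and the release channel Ryr2 one of 0.20 (adjusted p = 0.6054).

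Among 29 ion channel and gap junction genes 5 were higher and 1 was lower, and 3 were higher without SHRSP replicate 4 or without SHRSP replicate 5. Kcne1, the beta subunit of the slow delayed rectifier potassium channel, was at 8.45, 8.63 and 9.02 in SHRSP and at 7.01, 7.13 and 7.48 in F344. Kcnj8, the pore of the ATP-sensitive potassium channel of vascular muscle and pericytes, was at 7.90 to 8.13 against 7.19 to 7.58. Neither gene overlapped between the strains (differences of 1.51 and 0.66, adjusted p = 8.707e-15 and 2.105e-11 from limma). Slc4a3, an anion exchanger of the cardiomyocyte, was lower by 0.61. Of the renin-angiotensin, adrenergic and endothelin systems, 2 of 35 genes were higher and 3 lower, a share of 14.3% near the background of 11%. Rgs2, an inhibitor of signalling from receptors coupled to Gq, was lower by 0.95 with overlapping groups, a call that was lost by the t-test of the methods after Benjamini-Hochberg adjustment (0.09599). Npy, the cotransmitter of sympathetic nerves, was higher by 0.75.

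Energy metabolism showed small shifts in fatty acid oxidation and few in the respiratory chain. Of 38 genes of fatty acid uptake and oxidation 8 (21.1%) were higher and 2 lower, and the number higher fell to 5 without any 1 of SHRSP replicates 1 and 3 and F344 replicates 2, 3 and 4 and to 3 by the t-test of the methods. Acads, the short-chain acyl-CoA dehydrogenase, was at 10.39, 10.51 and 10.64 in SHRSP and at 9.80, 10.02 and 10.40 in F344 (difference 0.47, standard error 0.07, adjusted p = 4.566e-05 from limma). Acaa2, the thiolase that ends each round of beta-oxidation, was higher by 0.45 and Etfa, which passes its electrons on, by 0.38. In these 3 genes the ranges of the strains overlapped. Of the 2 lower genes, Ucp2, a carrier of the inner mitochondrial membrane, was at 11.16, 11.28 and 11.96 in SHRSP and at 12.25, 12.38 and 12.70 in F344, lower on every SHRSP array (difference -1.01, standard error 0.10, adjusted p = 1.276e-08).

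The regulators of these pathways were split. Ppara, the nuclear receptor for fatty acids, differed by only 0.17 but without overlap, at 7.33 to 7.499 against 7.14 to 7.30, values near the lower end of the scale. Tfam, which maintains mitochondrial DNA, was higher by 1.03 (10.43 to 10.71 against 9.45 to 9.64), and Klf15, a transcription factor of fasting metabolism, was lower by 0.69. In glycolysis 1 of 23 genes was higher and 4 were lower (2 without any 1 of SHRSP replicates 3, 6 and 7 and F344 replicate 8), among them Slc16a1, the lactate transporter MCT1, with a difference of -0.65 and no overlap, and Eno1, the enolase of non-muscle cells, with -0.53. Of 15 genes of the tricarboxylic acid cycle Cs, the citrate synthase, was the 1 called, higher by 0.74.

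The respiratory chain held 69 measured genes, of which 1 was higher and 3 were lower, a share of 5.8% that lay below the background of 11%. Atp5mk, a small subunit of the ATP synthase, was at 7.70, 8.51 and 8.66 in SHRSP and at 9.94, 10.28 and 10.75 in F344, and Ndufa10, a subunit of complex I, was lower by 0.78. Ndufa10 has a near-identical copy, Ndufa10l1, which was also lower, so the 2 probes may not be independent. Of 59 genes of the mitochondrial ribosome 11 were higher and 5 lower, and 42 of the 59 differences were above 0. The number higher fell to 7 without SHRSP replicate 4, to 6 with an intensity trend in the fit and to 5 by the t-test of the methods. Its largest differences ran in opposite directions, Mrpl18 at 7.42 to 7.65 in SHRSP against 11.34 to 11.97 in F344 and Mrpl17 at 9.59 to 10.03 against 7.45 to 7.79.

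Breakdown of ketones and branched-chain amino acids held 19 genes, of which 3 were higher and 5 (26.3%) lower. Adhfe1, an oxidoreductase of hydroxybutyrate, was at 7.18, 7.28 and 7.36 in SHRSP and at 9.08, 9.31 and 9.70 in F344, so that its SHRSP values lay at the lower end of the scale (difference -2.08, standard error 0.07, adjusted p = 1.422e-17 from limma). Acat1, the mitochondrial thiolase of ketone use, was lower by 1.07 without overlap. Of 18 genes of mitophagy and mitochondrial dynamics 3 were lower. Bnip3, a mitophagy receptor induced by hypoxia, was at 10.46 to 11.71 in SHRSP and 12.98 to 13.73 in F344, and Becn1, a core protein of autophagy, was lower by 0.85.

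The extracellular matrix showed higher values of matricellular proteins and less clear differences of the collagens themselves. Of 20 genes of fibrillar collagens and their crosslinking 4 (20%) were higher and 0 lower, and of 37 matricellular proteins and proteoglycans 7 (18.9%) were higher and 2 lower. The median difference was 0.13 in the first list and 0.17 in the second, against -0.0037 over all genes. Thbs4, a thrombospondin of loaded heart, was at 8.50, 8.66 and 9.06 in SHRSP and at 7.24, 7.61 and 8.32 in F344. Col8a1, a short-chain collagen of vessel walls and scars, was at 8.41, 8.47 and 8.69 against 7.54, 7.70 and 8.15. Neither overlapped between the strains (differences of 1.08 and 0.76, adjusted p = 1.085e-08 and 5.276e-09 from limma). Serpinh1, the collagen chaperone, was higher by 0.94, P3h2, a collagen prolyl hydroxylase, by 0.49 and Cilp, a matrix protein of fibroblasts chosen after its values were seen, by 0.60, each without overlap. Thbs2, another thrombospondin, was lower by 0.37, also without overlap.

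Col1a2, a chain of the main fibrillar collagen, ranged from 12.42 to 13.20 in SHRSP and from 11.81 to 12.95 in F344. Its difference of 0.55 passed at an adjusted p of 0.04514 and did not pass without 10 of the 15 arrays in turn. Col1a1 and Col3a1 gave differences of 0.25 and 0.45 (adjusted p = 0.2501 and 0.2645 from limma). In F344 the replicates 1, 4 and 5 had the 3 highest values of both Col1a2 and Col3a1, so that a few F344 hearts reached the level of SHRSP. Of 25 fibroblast markers 3 were higher and 2 lower.

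Endothelial genes were higher more often than genes in general. Of 37 measured endothelial genes 9 (24.3%, against 5.38% of all genes) were higher, 2 were lower and 26 did not pass. The median difference was 0.07 against -0.0037 over all genes, and 7 to 9 were higher without each array in turn. The 2 lower genes were lost without SHRSP replicate 7 and without F344 replicate 2 or 3. Cd34, a surface sialomucin of capillary endothelium, was at 7.43 to 7.91 in SHRSP and 6.90 to 7.18 in F344. Ly6c, which marks microvascular endothelium, was at 8.69 to 9.14 against 8.03 to 8.62, and Tfpi, the inhibitor of tissue factor, at 9.35 to 9.71 against 8.76 to 9.35. These 3 genes did not overlap between the strains (differences of 0.57, 0.53 and 0.47). Vegfa, the main angiogenic factor, was higher by 0.42 (adjusted p = 8.134e-05 from limma), while the junction protein Cdh5 had a difference of 0.14 (adjusted p = 0.1467). Vegfa is a secreted factor rather than a cell marker and is counted among the 9 higher genes. Of 19 smooth muscle and pericyte genes 3 (15.8%, against 5.38% of all genes) were higher, 0 were lower and 16 did not pass. The 3 higher genes were Kcnj8, Notch1 and Rgs5. In bulk tissue a change in the number of cells of a type and a change of RNA per cell cannot be told apart.

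**Figure D2:**
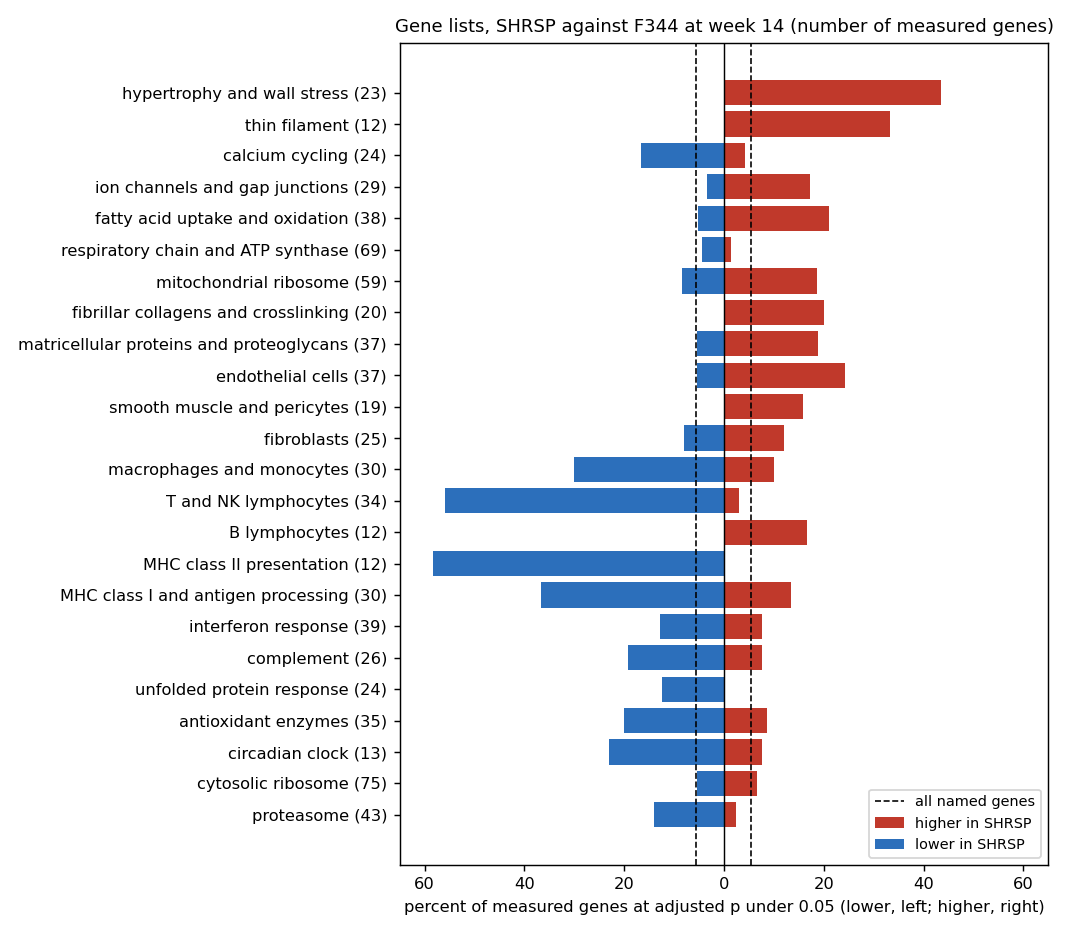
Share of the measured genes of 24 lists (rows, with the number measured) that were called at an adjusted p under 0.05, higher in SHRSP to the right and lower to the left, with dashed lines at the shares over all named genes of 5.38% and 5.63%. Hypertrophy genes extend furthest to the right, and lymphocyte and MHC class II genes furthest to the left.

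Genes of cytotoxic lymphocytes were lower in SHRSP. Of 34 measured markers of T and natural killer cells 19 (55.9%, against 5.63% of all genes) were lower and 1 was higher, and 12 (against 1.58% of all genes without overlap and lower) had groups that did not overlap. The mean log2 level over the whole list was 7.25 to 7.32 on the SHRSP arrays and 7.47 to 7.74 on the F344 arrays, again without overlap. Ccl5, a chemokine of activated T and natural killer cells, was at 8.82, 8.90 and 9.08 in SHRSP and at 10.45, 11.003 and 11.34 in F344. Its mean was 4.08-fold lower in SHRSP (log2 difference -2.03, standard error 0.09, adjusted p = 2.246e-15 from limma). Nkg7, a protein of cytotoxic granules, was at 7.73, 7.91 and 8.27 against 8.79, 9.60 and 9.90. The granule protease Gzma was at 7.07, 7.10 and 7.16 in SHRSP against 7.95, 8.45 and 8.83, and the coreceptor Cd8a at 6.96, 7.01 and 7.03 against 7.40, 7.97 and 8.13. For Gzma and Cd8a the SHRSP values were tightly grouped near the smallest values of the arrays, below which no decrease could be seen.

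The other lymphocyte genes followed with smaller differences. Klrd1, a receptor of natural killer cells, was lower by 0.78, the pore-forming protein Prf1 by 0.77 and the granule protease Gzmk by 0.72. The T cell receptor chains Cd3g, Cd247 and Cd3d had differences of -0.72, -0.30 and -0.27. Of these 6 genes only Prf1 overlapped between the strains, through F344 replicate 3. This array had the lowest F344 value of 15 of the 19 lower genes and the lowest list level of F344, 7.47, and 19 genes were lower without it. Cd4, the coreceptor of helper T cells, gave a difference of -0.03 (adjusted p = 0.8511). Ccr7, a homing receptor of naive T cells, was the member that was higher, by 1.01. Of the 34 genes 25 had a mean below 7.5, and with the probes restricted to means above 7.5 there were 8 lower genes among those kept. Of 12 B cell markers 2 were higher and 0 lower.

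MHC class II genes, which present peptides to helper T cells, were lower as well. Of 12 measured genes of this list 7 (58.3%) were lower and 0 higher, and all of the fits without 1 array gave 7. RT1-Db1, a beta chain of the rat class II molecule, was at 8.52, 8.67 and 8.89 in SHRSP and at 9.37, 10.003 and 10.56 in F344, and the alpha chain RT1-Da was at 10.82, 11.25 and 11.43 against 11.53, 12.14 and 12.71. Both were lower on every SHRSP array (differences of -1.38 and -0.90, adjusted p = 2.692e-10 and 4.692e-06 from limma). RT1-DMb and RT1-DMa, which load the peptides, were lower by 0.68 and 0.58, without overlap. Cd74, the invariant chain that travels with class II molecules, gave a difference of 0.03 (adjusted p = 0.9181), with 10.12 to 10.44 in SHRSP within 9.93 to 10.60 in F344.

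Of 30 genes of MHC class I and antigen processing 11 (36.7%) were lower and 4 higher. Subunits of the immunoproteasome, which cuts proteins into peptides for class I, were among the lower genes. Psmb8 was at 8.84, 9.25 and 9.72 in SHRSP and at 10.19, 10.68 and 11.37 in F344, a 2.65-fold lower mean without overlap (log2 difference -1.41, standard error 0.13, adjusted p = 4.001e-09 from limma). Psmb9 was lower by 0.46, Psmb10 by 0.55 and the proteasome activator subunits Psme1 and Psme2 by 0.49 and 0.33, with overlapping groups. The call of Psmb10 (adjusted p = 0.02981) was lost without any 1 of SHRSP replicates 1, 2 and 7 and F344 replicates 2, 3, 4 and 6. B2m, the light chain of class I, was at 14.44 to 14.66 in SHRSP and 14.82 to 15.06 in F344, a difference of -0.33 without overlap. RT1-A1, a classical class I heavy chain, was lower by 1.19, and since the rat class I genes are near-identical copies its assignment is uncertain. Psme2 and B2m were named after their values were seen. Of 43 proteasome genes 6 were lower, 5 of which were these immunoproteasome and activator genes.

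Promoters of the lower antigen processing genes are shown for 2 copies of GAAA that are 2 bases apart, the core of the sites bound by interferon regulatory factors. It occurs in 3.92% of all 33469 RefSeq promoters. It was found on either strand in 6 of the 11 lower genes, B2m, Psmb10, Psmb8, Psme2, RT1-S3 and Tap2, and in 4 of the 16 genes of the list that were not lower and had a promoter sequence, among them Tap1 and Tapbp. The stretches around the matches, in capitals, are from build GRCr8. They lie at chr20:4657011-4657050 (minus strand) for Psmb8, where the match is on the opposite strand and spans the start of the gene, at chr19:50743285-50743380 (minus strand) for Psmb10 with 2 matches, at chr15:33052780-33052819 (minus strand) for Psme2 and at chr3:129549165-129549204 (plus strand) for B2m.
Psmb8: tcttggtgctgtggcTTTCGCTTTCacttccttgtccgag
Psmb10: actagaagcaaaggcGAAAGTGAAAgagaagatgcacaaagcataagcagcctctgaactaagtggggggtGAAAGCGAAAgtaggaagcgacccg
Psme2: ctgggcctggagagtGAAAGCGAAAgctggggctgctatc
B2m: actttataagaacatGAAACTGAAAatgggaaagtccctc

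**Figure D3:**
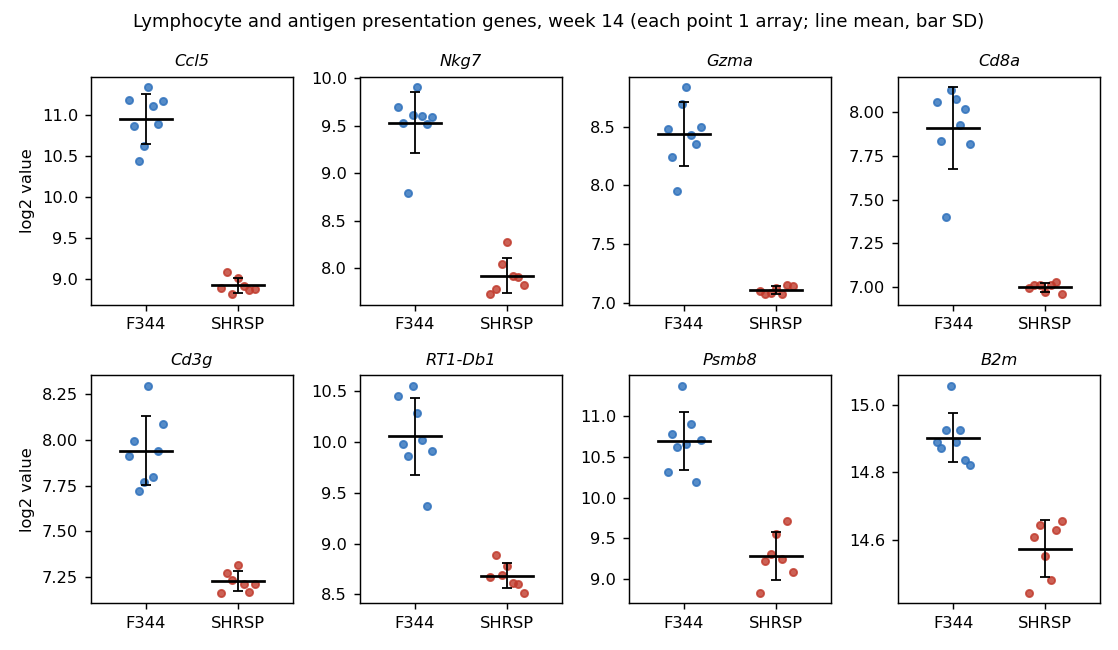
Log2 values (y axes, a separate range for each gene) of 5 lymphocyte genes, the class II gene RT1-Db1, the immunoproteasome subunit Psmb8 and B2m on the 8 F344 and 7 SHRSP arrays of week 14, with 1 point per array, the mean as a line and the SD as a bar. All 8 genes are lower in SHRSP without overlap.

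Interferon response genes did not move as 1 group. Of 39 genes 3 were higher and 5 lower, and 4 to 9 were lower without each array in turn. Complement genes were lower in 5 and higher in 2 of 26 cases. C2, a protease of the classical pathway, was at 8.80 to 9.45 in SHRSP and 10.07 to 10.97 in F344 (difference -1.51, adjusted p = 1.448e-10 from limma), and C4b, its partner, was lower by 0.68. Both genes, like the class II genes and Psmb8, lie on chromosome 20, which holds the rat MHC. On this chromosome 72 of 424 named genes (17%) were called, 31 higher and 41 lower, the highest share of any chromosome, against 11% overall.

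Macrophage markers were lower more often than higher. Of 30 measured genes 9 (30%) were lower and 3 higher. Mrc1, the mannose receptor of resident macrophages, was at 7.81, 8.32 and 8.85 in SHRSP and at 8.89, 9.25 and 9.79 in F344, and the lectin Clec10a was at 9.22 to 9.89 against 9.95 to 10.67. Neither overlapped (differences of -0.99 and -0.76, adjusted p = 6.198e-06 and 1.937e-05 from limma). The lysosomal proteases Lgmn and Ctss, which also process antigens, were lower by 1.58 and 0.53. Trem2, a lipid receptor of macrophages, was higher by 1.30, at 8.53 to 9.38 against 7.47 to 8.10. The mean log2 level over the whole list was 8.28 to 8.55 in SHRSP and 8.42 to 8.73 in F344, with overlap.

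In the circadian clock 1 of 13 genes was higher and 3 were lower. Per2, a repressor of the clock, was at 8.77, 9.55 and 10.36 in SHRSP and at 10.20, 10.72 and 10.94 in F344, with a difference of -1.12 (adjusted p = 4.195e-05 from limma). Nr1d1 and Bhlhe40, also repressors, were lower by 0.46 and 0.55, and the activator Bmal1 was higher by 0.45. In all 4 clock genes the groups overlapped, and Nr1d1 and Bmal1 were not called by the t-test of the methods after Benjamini-Hochberg adjustment (0.06932 and 0.09121). Of 24 genes of the unfolded protein response 0 were higher and 3 lower, and 22 of 24 differences were below 0. Sdf2l1, a protein of the endoplasmic reticulum, was lower by 0.29. Herpud1 (difference -0.38) and the transcription factor Xbp1 (difference -0.31) did not pass without several single arrays, and 1 to 4 genes of the list were lower without each array in turn, with 1 without SHRSP replicate 4.

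Of 35 antioxidant genes 3 were higher and 7 (20%) lower. Txnip, the inhibitor of thioredoxin, was lower by 0.60 and the glutathione transferase Gstm2 by 0.53. Of 36 genes of lipid mediators 4 were higher and 2 lower. Ephx2, the soluble epoxide hydrolase that degrades vasodilator epoxides of arachidonic acid, was at 8.71, 8.93 and 9.20 in SHRSP and at 10.85, 11.37 and 11.65 in F344. Ptgr2 and Ptgr1, reductases of prostaglandins, were higher by 1.604 and 0.52 and the fatty acid hydroxylase Cyp4a1 by 0.99. These 4 genes did not overlap between the strains. In iron handling Hfe, a regulator of iron uptake, was lower by 0.71 without overlap. Hamp, the iron hormone hepcidin, was at 7.72 to 10.14 in SHRSP and 9.05 to 12.95 in F344, where replicate 3 was the highest (difference -1.76, adjusted p = 0.006257 from limma). The call of Hamp was lost with only the week 14 arrays (adjusted p = 0.05524 from limma) and by the t-test of the methods after Benjamini-Hochberg adjustment (0.116). Hopx, a cofactor of cardiac transcription factors, was higher by 1.04 without overlap.

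The genes between 0.5 and 1.5 and those below 0.5 that separated the strains completely were then considered as 2 sets. Of 288 named genes that were called, did not overlap and differed by 0.5 to 1.5, 198 were higher and 90 lower. Of 211 such genes with a difference below 0.5, 106 were higher and 105 lower. The 20 lowest of the first set differed by -0.94 to -1.41 and included Psmb8, RT1-Db1, Gzma, RT1-A1, Acat1, Ucp2, Mrpl48 and Mrc1. Of these 20 genes 11 were also called lower at E20, against 1.92% of all genes. Of the 20 highest genes of the first set 15 were also called higher at E20, against 1.82% of all genes. The 10 lower genes with the smallest p of the second set differed by -0.27 to -0.49, and 7 of them were also called lower at E20, among them Mief1, a receptor of mitochondrial fission, and the tRNA synthetase Sars2. The 10 higher genes of the second set, such as the malic enzyme Me1 and Mecr of mitochondrial fatty acid synthesis, differed by 0.39 to 0.50. Of these 10 genes 1 was called higher at E20. A called interaction of strain and stage was found for 9 of the 10 higher and 3 of the 10 lower genes, against 3.44% of all genes.

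Of the 20 highest genes of the first set 17 followed 1 common profile over the arrays, at a Pearson's r above 0.9 with the mean of the others. The 20 genes differed by 1.18 to 1.48 at week 14 and included genes with no known common role in the heart, such as Atad2 (a chromatin ATPase), Klhl14, the olfactory receptor gene Or1aa2, Trem2 and the matrix gene Tnn. Over the 26 arrays the median Pearson's r between pairs of them was 0.95 (190 pairs), against 0.65 for the 20 lowest. Their mean profile, centred on each gene's mean, was 0.91 to 1.13 on the SHRSP arrays of week 14, -0.42 to -0.12 in F344 at week 14, -0.27 to -0.16 in SHRSP at E20 and -0.66 to -0.56 in F344 at E20. The arrays of 1 group share their group mean in this r, so the profile describes the order of the groups more than that of single arrays. As deviations from the group means the median r between pairs was 0.25 for the 20 highest and -0.02 for the 20 lowest.

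The same profile, at an r above 0.9, was found in 243 of the 1011 probes that were higher in SHRSP. These 243 probes differed by 0.22 to 3.21, with a median of 0.87, and had a median difference of 0.18 at E20. Of 361 probes higher by more than 0.5 (1.6% of all), 209 (57.9%) had this r, whereas 11 of 211 probes (5.21%) lower by more than 0.5 (0.937% of all) had an r below -0.9. At an r above 0.95 the numbers were 148 and, below -0.95, 0. Of the 243 probes 154 have a gene name, and their genes were spread over 20 chromosomes with at most 20 genes on 1. Since the rule picked genes that were high in SHRSP at week 14, these counts are descriptions and the reason for the profile was not tested.

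Several genes named above belonged to this profile. They were Rcan1, Kcne1, Kcnj8, Cs, Serpinh1, Cilp, Ccr7, Trem2, Ptgr2 and Cyp4a1, and also Card9, an adaptor of innate immune receptors (difference 3.21), and Defb1, an antimicrobial peptide (difference 1.58). In the paper's qPCR the higher Card9 level of adult SHRSP was not found, and Card9 was dropped as a candidate. The same qPCR did find Kcne1 and Defb1 higher in adult SHRSP. Whether the array differences of the other genes of the profile reflect expression was not tested here. Without the genes of the profile 566 of the 718 higher genes were left, 9 of the 10 higher hypertrophy genes, all 8 of fatty acid oxidation, all 9 endothelial genes, 3 of 4 for fibrillar collagens, 6 of 7 matricellular genes, 1 of 3 for macrophages and 0 of 1 for lymphocytes. Nppa, Nppb, Acta1 and Spp1 were not in it. Of 1242 measured genes of olfactory, vomeronasal, taste and trace amine receptors, which mark sensory cells, 17 (1.37%) were higher, 14 of them with this profile, and 2 were lower. The 14 had group means of 7.74 to 10.07 in SHRSP and 7.35 to 8.81 in F344. The limit of r and these receptor genes were chosen after the values were seen.

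**Figure D4:**
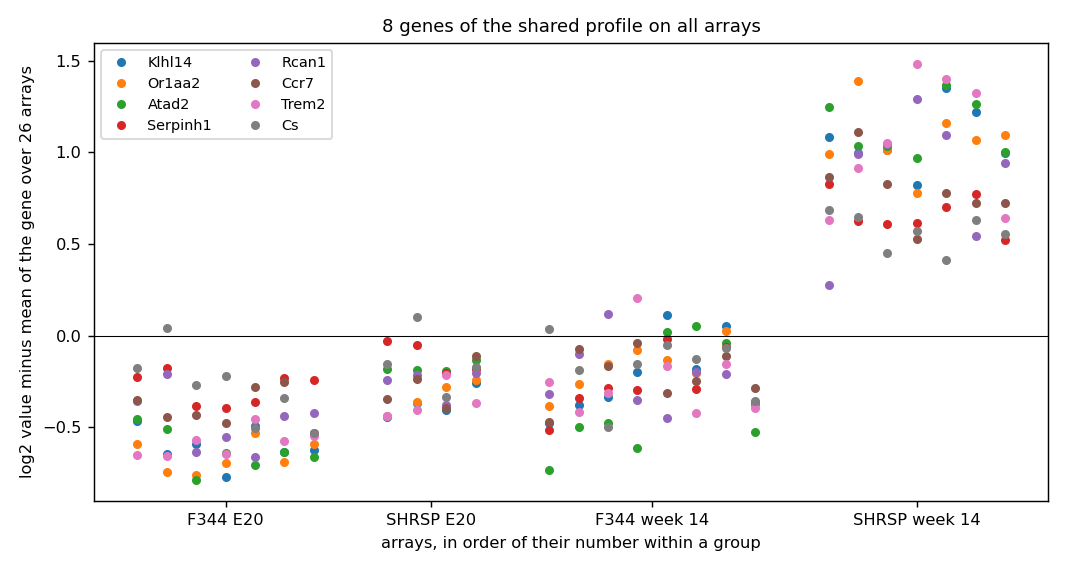
Log2 values of 8 genes of the shared profile (colours), each minus its mean over the 26 arrays (y axis), on all arrays by group (x axis, with 1 point per gene and array). The 7 SHRSP arrays of week 14 lie above the other 3 groups for all 8 genes.

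The strains were also compared at E20 to ask which of the differences of week 14 were there before birth. At E20 723 probes (3.21%) and 499 named genes (3.74%) were called, 1.82% higher and 1.92% lower. Of the 1469 genes called at week 14, 308 (21%) were called in the same direction at E20, 5 in the opposite direction and 1156 not. The share called at both stages was 14.7% of the genes with a difference below 0.5 at week 14, 31% from 0.5 to 1, 48.7% from 1 to 1.5 and 55.9% above 1.5. The interaction of strain and stage was called for 667 probes (2.96%) and 459 named genes (3.44%), including 383 of the 1469 and 314 of the 1156. For the remaining genes it was not shown that the 2 stages differ. For E20 the labels give the whole heart and the methods both ventricles without atria and another RNA kit, so stage, the part of the heart and the kit cannot be told apart.

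Of the 20 T and natural killer cell genes called at week 14 0 were called in the same direction at E20 and 16 had a called interaction. At E20, however, the 19 genes that were lower at week 14 were near the lower end of the scale in both strains, with Ccl5 at 7.19 to 7.43 and Gzma at 6.98 to 7.12, so that a strain difference in these genes could hardly have been seen there. The differences were 0.09 for Ccl5 and 0.06 for Gzma. Of the 10 hypertrophy genes 1, Spp1, was called at E20, with a difference of 2.81, and 7 had a called interaction, among them Nppa (0.20 at E20) and Acta1 (0.02 at E20). At E20 Acta1 lay near the upper end of the scale in both strains, at 14.66 to 15.04, where differences are compressed. Genes called in the same direction at both stages, with no called interaction, included Sorbs2 (4.47 at E20), Mrpl18 (-4.25), Bnip3 (-2.28) and Mrpl17 (2.36). Others were Tfam (1.24), Lgmn (-1.25) and Cacna2d1 (-0.79). At E20 Mrpl18 was low in SHRSP (7.39 to 7.59), and Sorbs2 (7.46 to 7.58) and Mrpl17 (7.51 to 7.69) were low in F344. Whether a sequence difference between the strains at a probe changed its signal was not tested for any gene, including the MHC genes. Of the fatty acid oxidation genes called at week 14 0 were called at E20 in the same direction, and of the 7 lower class II genes 1 was. A called interaction was found for 2 of these fatty acid oxidation genes and for 2 of the 7 class II genes. For the others it was not shown that the stages differ.

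**Figure D5:**
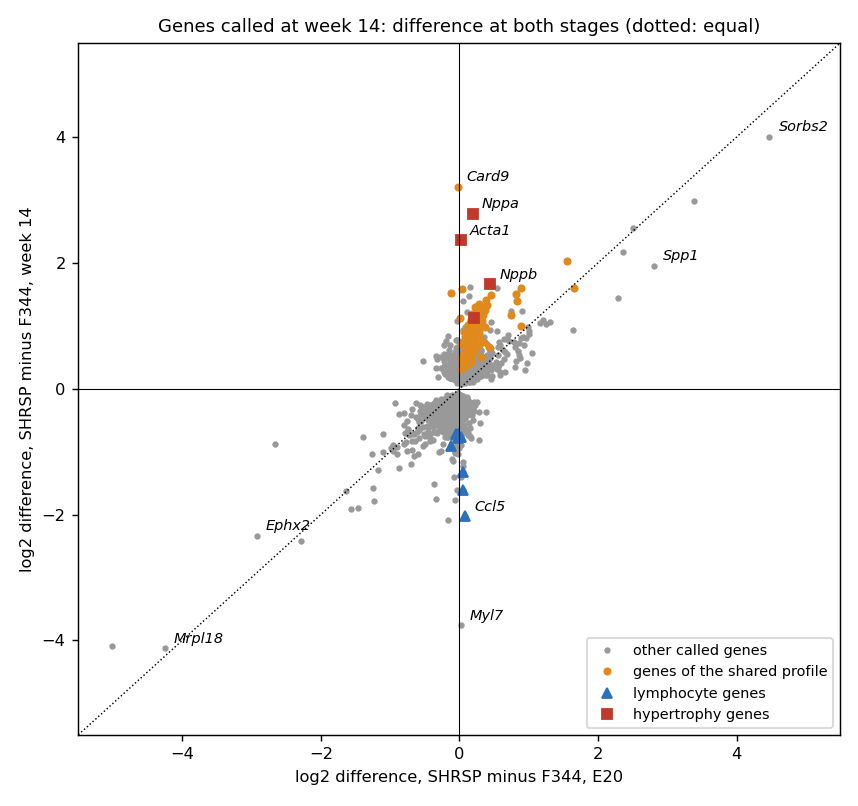
Log2 difference SHRSP minus F344 at E20 (x axis) and at week 14 (y axis) of the 1469 genes called at week 14, 1 point per gene, with 8 lymphocyte genes (triangles), Nppa, Nppb, Acta1 and Rcan1 (squares) and genes of the shared profile (orange) set apart and a dotted line of equal difference. Nppa and Acta1 lie close to 0 at E20, as do the lymphocyte genes shown, which are dim in both strains at that stage, while Sorbs2, Mrpl18 and Ephx2 lie near the dotted line.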

How the data were processed

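GenomeStudio and the R package lumi were used by the authors, who excluded arrays that correlated poorly with their group. They deposited log2 values after quantile normalization of all arrays, with a background step not given in the sources used here. These values of 22523 probes were taken unchanged. A raw table with 52 columns was not used, as its column names could not be matched to samples, and so no detection filter was applied. The array annotation named 13793 probes and left 8730 unnamed here. Symbols were updated through the gene ID for 13752 and kept for 41. Of several probes for a gene the brightest was used. Of the called genes 56 had more than 1 named probe, with 63 further probes. Of these further probes 38 had the same sign as the brightest, 8 were called in the same direction and 0 in the opposite direction. The call of a gene therefore holds for its brightest probe only.

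Means of the 4 groups of strain and stage were fitted over the 26 arrays with limma 3.58.1 in R 4.3.3. All adjusted p-values are from this fit, by the Benjamini & Hochberg method over every probe, and a probe with a value under 0.05 was called. The fit was tested on simulated data. The 71 gene lists were described by counts. Named are genes of the paper, the 20 highest and 20 lowest called genes without overlap that differ by 0.5 to 1.5, the 10 with the smallest p in each direction below 0.5, and up to 4 called members of each list with the largest differences, besides members that did not pass and cell type markers. Members and lists were chosen with earlier results of these data known. Promoters are those of RefSeq, build GRCr8. Replicate numbers come from the titles. Alternatives were fits of the week 14 arrays alone, a replicate block, an intensity trend, weighted arrays, the t-test of the methods, other normalizations, filters on dim probes, a covariate, a stricter threshold and leaving out each array. Tables and plots were made with pandas 2.3.3, NumPy 2.4.6 and Matplotlib 3.10.9 under Python 3.11.15. Precision is limited by the number of arrays, and p-values measure the spread between animals of 1 colony per strain whose arrays the authors kept.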

Additional observations from a re-analysis of the deposited data

Results flagged for a closer look

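Among 224 groups of values of the 112 genes followed, 22 held 1 array far from the others of its group by Dixon's test. Chance alone gives such an array in about 1 in 20 of the groups tested. Values are log2, with the range of the other arrays of that group in parentheses. F344 replicate 3 was the highest for Spp1 at 7.99 (7.31 to 7.61), Ankrd1 at 15.26 (14.58 to 14.81) and Sorbs2 at 8.17 (7.27 to 7.39). F344 replicate 3 was the highest for Kcne1 at 7.48 (7.01 to 7.21) and Thbs4 at 8.32 (7.24 to 7.74). F344 replicate 3 was the lowest for Fhl2 at 12.84 (13.57 to 14.07), Ly6c at 8.03 (8.37 to 8.62) and Nkg7 at 8.79 (9.52 to 9.90). F344 replicate 3 was the lowest for Cd8a at 7.40 (7.82 to 8.13) and Prf1 at 7.70 (8.34 to 8.69). F344 replicate 4 was the highest for B2m at 15.06 (14.82 to 14.93) and Trem2 at 8.10 (7.47 to 7.74). F344 replicate 5 was the highest for Gzmk at 8.33 (7.89 to 8.07). F344 replicate 5 was the lowest for Myh6 at 14.67 (14.94 to 15.06). F344 replicate 7 was the highest for Acaa2 at 13.57 (12.81 to 13.15). SHRSP replicate 1 was the highest for Ucp2 at 11.96 (11.16 to 11.50), Eno1 at 8.11 (7.504 to 7.58) and Gstm2 at 10.34 (9.38 to 9.78). SHRSP replicate 1 was the lowest for Atp5mk at 7.70 (8.43 to 8.66). SHRSP replicate 2 was the highest for Gdf15 at 7.47 (7.16 to 7.26). SHRSP replicate 5 was the highest for Npy at 9.28 (8.02 to 8.39). SHRSP replicate 6 was the lowest for Atp2a2 at 15.44 (15.53 to 15.53).

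For 49 of these genes the strain difference at week 14 was not that at E20, by a called interaction in limma (adjusted p under 0.05 over all probes). The values are the log2 difference SHRSP minus F344 at week 14 minus the same at E20. Among hypertrophy genes it was 2.59 for Nppa, 1.21 for Nppb, 2.33 for Acta1 and 0.91 for Rcan1. Of the further hypertrophy genes it was 0.88 for Enah, 0.72 for Ankrd1 and 0.21 for Gdf15. Among sarcomere and ion channel genes it was -3.78 for Myl7, 0.91 for Myl1 and 1.64 for Kcne1. Among mitochondrial genes it was -0.72 for Ucp2, 0.60 for Cs and -1.93 for Adhfe1. Among matrix genes it was 0.77 for Serpinh1, 1.11 for Thbs4, 0.76 for Col8a1 and 0.48 for Cilp. Of the further matrix genes it was -0.38 for Thbs2. Among endothelial genes it was 0.53 for Tfpi and 0.45 for Ly6c. Among lymphocyte genes it was -2.11 for Ccl5, -1.66 for Nkg7, -1.38 for Gzma and -0.78 for Cd8a. Of the further lymphocyte genes it was -0.76 for Klrd1, -0.79 for Prf1, -0.70 for Gzmk and -0.67 for Cd3g. Of the further lymphocyte genes it was -0.28 for Cd3d, -0.26 for Cd247 and 0.88 for Ccr7. These lymphocyte genes, except Ccr7, were dim in both strains at E20, where a strain difference could hardly have been seen. The same limit holds for Kcne1 (6.91 to 7.22 at E20), Adhfe1 (6.90 to 7.24) and Gdf15 (7.03 to 7.17), among other genes given here. Acta1 lay near the upper end of the scale in both strains at E20. Among antigen presentation genes it was -1.38 for RT1-Db1, -0.86 for RT1-Da, -1.33 for Psmb8 and -0.47 for B2m. Among macrophage and complement genes it was 1.07 for Trem2, -1.15 for C2 and -0.60 for C4b. Among lipid mediator genes it was 0.59 for Ephx2, 0.71 for Ptgr2 and 0.72 for Cyp4a1. Among clock genes it was -1.02 for Per2 and -0.69 for Bhlhe40. Among other genes it was 0.90 for Hopx, 1.06 for Klhl14, 0.94 for Or1aa2 and 1.03 for Atad2. Of the further other genes it was 3.24 for Card9 and 1.54 for Defb1. The higher Card9 level of adult SHRSP was not found by the paper's qPCR. Ephx2 was lower in SHRSP at both stages and by less at week 14. Ptgr2, Cyp4a1, Or1aa2 and Atad2 were called higher at both stages and by more at week 14.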

How the results depend on the processing

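Of the 2015 probes called, 1855 to 2106 were called without each array in turn (higher 931 to 1065, lower 917 to 1041), and at E20 and for the interaction 700 to 796 and 603 to 736 were called. With only the week 14 arrays and the replicate number as a block the number fell to 1342, of which 622 lower. Same-numbered arrays of the strains had a correlation of deviations of -0.23 to 0.41 and only 2 of 7 numbers matched best, so a number was taken as a name only. With only the week 14 arrays and no block 1682 were called. The methods' t-test gave 3668 unadjusted and 1396 after Benjamini-Hochberg (644 lower). At an adjusted p under 0.01 there were 644 lower, 445 at E20 and 441 for the interaction. Probes with a mean above 8 gave 671 higher, 446 at E20 and 441 for the interaction, since fewer probes were tested. Array weights gave 1228 at E20, and the cause was not tested. Chosen after seeing the data, leaving out F344 arrays 1 and 3 gave 2054 and leaving out the shared profile 1772. Of 104 called genes whose values the text gives 99 kept their call without each array in turn, 5 lost it with only the week 14 arrays, 8 with the block and 8 by the methods' t-test. Besides genes that also lost it without single arrays these were Hamp, Rgs2, Bmal1 and, for the block, Gdf15 and, for the t-test, Nr1d1. With the block 3 genes of fatty acid oxidation and 6 of the mitochondrial ribosome were higher and 2 of glycolysis lower. In all 0 of 112 changed direction under any alternative run. A change of direction was counted only where the fit of all arrays or the alternative called the gene. Dim probes, signal near the upper end of the scale and the number of arrays limit the precision.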
